A study of Mus musculus with 4 samples.

Results

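Microglia are the resident macrophages of the brain, and the 10 genes described here are markers of their identity and of their activation. The 10 were taken by gene symbol from the deposited tables of the series and split by their usual roles. The homeostatic group holds P2ry12, Tmem119, Siglech and Csf1r, and the activation group holds Trem2, Tyrobp, Cd68, Itgax, Aif1 and Ptprc. All 10 members are listed among the 15396 genes of the AAV table and 7 among the 12318 genes of the stress table, where Csf1r, Aif1 and Ptprc carry no value.

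RNA was sequenced from the prelimbic cortex, part of the medial prefrontal cortex, of 8-week C57BL/6 mice, giving 4 libraries in 4 groups of 1. The stress table holds a control library and a library from stress-susceptible mice of a chronic social defeat experiment, and the labels of both name the defeat stress, so the handling of the controls cannot be read from them. The AAV table holds a library from mice given adeno-associated virus (AAV) with green fluorescent protein (AAV-GFP) and one from mice given AAV carrying CDYL, a chromatin corepressor (AAV-CDYL). The labels give neither the promoter of the vectors nor the number of mice behind a library. They name no resting tissue without virus in the AAV table, so both of its libraries carry a vector.

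Microglia at rest survey the tissue with motile processes, depend on signalling through the CSF1 receptor, and sense extracellular nucleotides through P2Y receptors. When they meet debris, damaged myelin or infection, TREM2 at the surface signals through its adaptor TYROBP, homeostatic genes are typically turned down, and genes for phagocytosis, lysosomes and adhesion are turned up. No member is restricted to activated microglia. Ptprc marks all leukocytes, Itgax marks dendritic cells too, Siglech also marks plasmacytoid dendritic cells, and Csf1r, Cd68, Aif1, Trem2 and Tyrobp are shared with other macrophages. In bulk tissue, fewer cells of a type and less RNA per cell cannot be told apart.

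All levels are FPKM (fragments scaled to transcript length and to library size) as the authors deposited them. Each group is 1 library, so differences carry no spread between replicates, and no test was run. A gene was counted as higher or lower where its level on the log2(FPKM + 1) scale differed by at least 1.5-fold and it reached 1 FPKM in either library. That scale understates differences of low genes, so ratios of FPKM are given beside it. The spacing of low FPKM values gave effective depths of 14300000 fragments for control, 22600000 for AAV-GFP, 23200000 for susceptible and 23900000 for AAV-CDYL. From these and the longest coding transcript, the fragments behind each member were estimated, and the 95% intervals printed with ratios (Clopper-Pearson, conditional on the sum of both libraries) cover counting error only. They leave out the spread between animals, which these data do not give. In both tables no gene above 0 in both libraries differs by less than 0.32 on the log2 ratio scale, so an unlisted gene carries no value here. As a check of the labels, Cdyl stood at 2.68 FPKM in AAV-GFP and 1050 in AAV-CDYL, a ratio of 393, and at 1.98 in control and 2.54 in susceptible. Neuronal markers summed to 2650 FPKM in control and 1940 in susceptible over the 7 listed there, and to 5090 in AAV-GFP and 3280 in AAV-CDYL over the 10 listed in that table, so the sums are not comparable between tables.

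Promoter windows from RefSeq (build GRCm38.p6, 250 bases before to 50 bases after the start) matched 7 of the 10 members, and Tmem119, Csf1r and Tyrobp had none. The windows of the 4 members below are shown because their levels followed 4 different patterns, described in the next paragraphs. Capitals mark matches, on either strand, to GAGGAA, the purine-rich box bound by the myeloid factor PU.1, and to the composite element of ETS and IRF factors, which is GGAA and GAAA with 2 bases of any kind between them. Each is printed 5′ to 3′ on the strand of the gene. P2ry12 lies on the minus strand at chr3:59262936-59263235, Trem2 on the plus strand at chr17:48346151-48346450, Cd68 on the minus strand at chr11:69666121-69666420, and Itgax on the plus strand at chr7:128129300-128129599.
P2ry12: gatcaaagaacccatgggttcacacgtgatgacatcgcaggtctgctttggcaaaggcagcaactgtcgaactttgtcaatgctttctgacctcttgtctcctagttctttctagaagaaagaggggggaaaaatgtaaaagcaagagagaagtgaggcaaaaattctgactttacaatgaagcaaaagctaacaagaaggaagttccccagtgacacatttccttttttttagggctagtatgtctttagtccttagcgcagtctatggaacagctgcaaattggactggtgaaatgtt
Trem2: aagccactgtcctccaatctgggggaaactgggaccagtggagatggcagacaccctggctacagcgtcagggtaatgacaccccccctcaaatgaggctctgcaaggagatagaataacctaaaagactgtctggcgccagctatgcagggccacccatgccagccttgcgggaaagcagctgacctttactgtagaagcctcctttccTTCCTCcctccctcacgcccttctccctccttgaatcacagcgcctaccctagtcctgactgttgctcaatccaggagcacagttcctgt
Cd68: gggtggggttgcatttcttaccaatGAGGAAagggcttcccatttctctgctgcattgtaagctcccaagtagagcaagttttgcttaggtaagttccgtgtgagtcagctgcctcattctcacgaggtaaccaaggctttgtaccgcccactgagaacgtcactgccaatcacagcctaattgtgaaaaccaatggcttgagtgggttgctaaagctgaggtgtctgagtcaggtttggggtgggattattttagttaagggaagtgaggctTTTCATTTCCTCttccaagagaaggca
Itgax: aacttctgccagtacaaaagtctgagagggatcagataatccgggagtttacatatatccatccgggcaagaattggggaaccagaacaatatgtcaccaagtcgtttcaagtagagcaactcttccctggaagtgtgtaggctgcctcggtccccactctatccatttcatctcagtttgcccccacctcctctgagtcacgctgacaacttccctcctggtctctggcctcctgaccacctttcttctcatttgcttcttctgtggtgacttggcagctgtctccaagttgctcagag
The first windows of 5 of the 7 members held GAGGAA (Siglech, Trem2, Cd68, Aif1 and Ptprc), against 28.3% of all 32851 windows of the same length. Cd68 alone of the 7 held the composite element, which 2.72% of all windows hold, and there it overlaps the second GAGGAA match. A match describes letters and is not a bound site, and the windows of P2ry12 and Itgax held neither set of letters.

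In the susceptible library, the 3 listed homeostatic genes lay below control, at 0.309 to 0.739 times its level, and the activation genes lay on both sides of it, at 0.341 to 2.27 times. Of the 3 listed homeostatic members 2 were lower and 0 higher by the size rule. Of the 4 listed activation members 1 was higher (Cd68) and 1 lower (Trem2). The size rule called 29.6% of the 5334 listed genes that reached 1 FPKM in this table, 18.9% as higher and 10.8% as lower. Genes with log2 ratios within 0.32 of 0 are not listed, which raises these shares above those over all expressed genes. That split of 1006 higher and 575 lower became 532 and 1918 when centred on the median listed gene, and 2318 and 194 under upper-quartile scaling. P2ry12 and Trem2 thus differed in the same direction, while Trem2 and its adaptor Tyrobp did not.

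P2ry12, the ADP receptor that guides microglial processes to injury (chromosome 3, 59216272 to 59262871; all positions are mm10), had 25.4 FPKM in the control library and 7.85 in the susceptible one. The control level was 3.23 times that of susceptible (interval 2.87 to 3.64). These values rest on an estimated 850 and 427 fragments. The locus of P2ry12 in the authors' table holds 6 listed genes, and the neighbouring receptor gene P2ry13 differed less, at 3.30 and 2.22. Siglech, a sialic-acid binding lectin of microglia (chromosome 7, 55768178 to 55778925), stood at 9.64 and 4.77, with control 2.02 times susceptible (interval 1.70 to 2.39). Tmem119, a membrane protein used as a microglial marker (chromosome 5, 113793729 to 113800516), stood at 9.72 and 7.19. Its difference of -0.39 on the log2(FPKM + 1) scale was not called. It was -0.63 and called lower when centred on the median listed gene, a median that lacks genes with small differences.

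Trem2, the lipid-sensing receptor of phagocytic microglia (chromosome 17, 48346401 to 48354147), had 18.4 FPKM in the control library and 6.28 in the susceptible one. The control level was 2.93 times that of susceptible (interval 2.41 to 3.58), on an estimated 286 and 158 fragments. Trem2 has 4 annotated transcripts of 526 to 4784 bases, the longest a non-coding form with a retained intron, and how fragments were shared among them is not given in the sources used here. Tyrobp, the signalling adaptor that TREM2 needs at the surface (chromosome 7, 30413760 to 30417585), stood at 16.4 and 21.6, a ratio of 1.32 (interval 1.07 to 1.62). Its difference of 0.38 was not called, but was 0.69 and called higher under upper-quartile scaling. Cd68, a lysosomal glycoprotein of phagocytes (chromosome 11, 69664213 to 69666153), stood at 3.46 and 7.84, a ratio of 2.27 (interval 1.7 to 3.06). Itgax, the CD11c integrin subunit (chromosome 7, 128129547 to 128150657), stood at 0.0857 and 0.170. These are an estimated 5 and 16 fragments, the interval of the ratio spans 0.690 to 6.88, and Itgax stayed under the floor in both libraries.

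**Figure D1:**
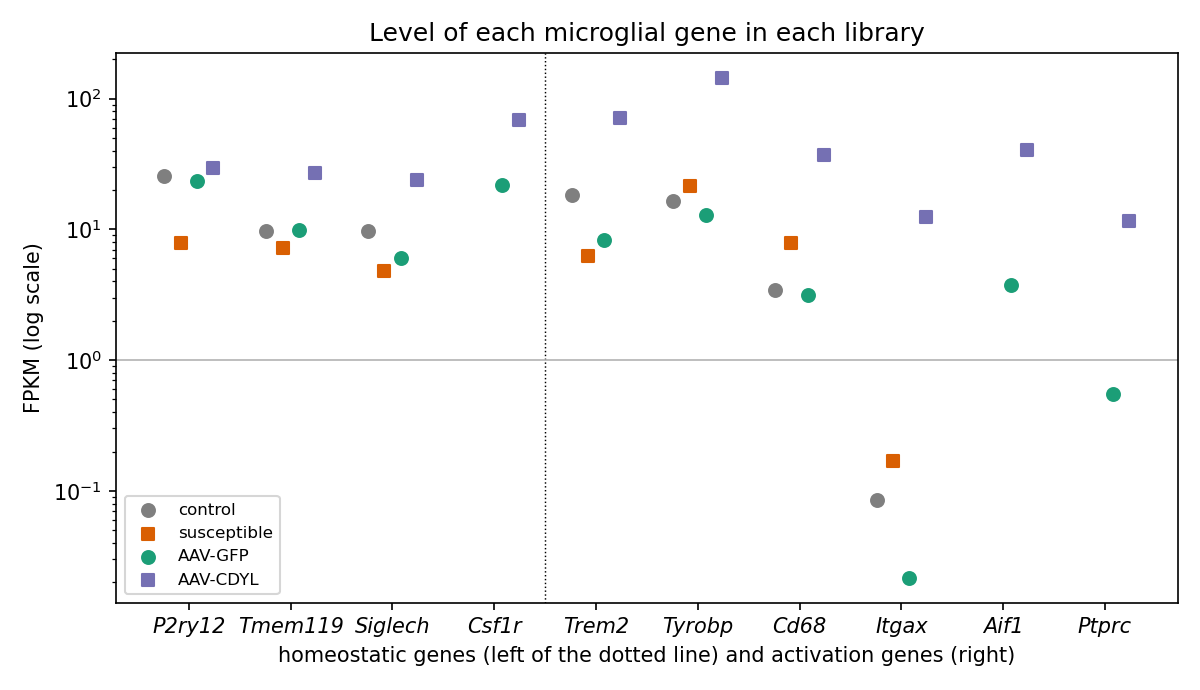
Level of each member in FPKM (log scale) in the 4 libraries, 1 point per library, with circles for control and AAV-GFP, squares for susceptible and AAV-CDYL, and a grey line at 1 FPKM; genes without a value in the stress table have 2 points. In AAV-CDYL all 10 genes lie above AAV-GFP, while in susceptible P2ry12, Siglech, Tmem119 and Trem2 lie below control and Cd68, Tyrobp and Itgax above it.

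In the AAV-CDYL library all 10 members were above AAV-GFP, and the activation genes differed by more than the homeostatic ones. Of 6 activation members 6 were higher by the size rule, and of 4 homeostatic members 3 were higher and 0 lower. The size rule called 45.7% of the 8047 listed genes that reached 1 FPKM in this table, 31.3% as higher and 14.4% as lower. Here too genes with small differences are not listed, which raises these shares above those over all expressed genes. That split of 2516 higher and 1159 lower became 1630 and 3572 when centred on the median listed gene, and 2788 and 821 under upper-quartile scaling. Ratios of AAV-CDYL to AAV-GFP ran from 8.49 to 577 in the activation group and from 1.27 to 3.95 in the homeostatic group. The ranges did not overlap for these 10 members, unlike those of wider lists described below. Itgax and Ptprc reached 1 FPKM in AAV-CDYL alone, so the floor fixes the direction of their calls.

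Tyrobp stood at 13 FPKM in AAV-GFP and 144 in AAV-CDYL, a ratio of 11 (interval 9.46 to 13). It was the highest of the 10 in AAV-CDYL. Trem2 stood at 8.33 and 70.7, a ratio of 8.49, on an estimated 205 and 1839 fragments. Receptor and adaptor were thus both above AAV-GFP, in contrast to the susceptible library, where Trem2 was below control. Cd68 stood at 3.17 and 37.3, a ratio of 11.8. Aif1, which encodes the actin-binding protein IBA1 (chromosome 17, 35170991 to 35176068), stood at 3.78 and 40.4, a ratio of 10.7. These 4 genes, which stood at 3.17 to 13 FPKM in AAV-GFP, had ratios within 8.49 and 11.8.

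Ptprc, the CD45 phosphatase of all leukocytes (chromosome 1, 138062861 to 138175708), stood at 0.553 FPKM in AAV-GFP and 11.6 in AAV-CDYL, a ratio of 21.1 (interval 16.5 to 27.7). Itgax stood at 0.0217 and 12.5. The AAV-GFP value is an estimated 2 fragments, so the ratio of 577 has an interval of 158 to 4730. Itgax was thus close to undetected in control, susceptible and AAV-GFP and was measured on an estimated 1210 fragments in AAV-CDYL.

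Among the homeostatic genes Siglech had the largest ratio, at 6.06 FPKM in AAV-GFP and 23.9 in AAV-CDYL (ratio 3.95). Csf1r, the receptor for CSF1 and IL-34 on which microglia depend (chromosome 18, 61105572 to 61132149 in the authors' table), stood at 22.0 and 68.6, a ratio of 3.12. It shares its locus in the authors' table with Hmgxb3, which covers 15.1% of its annotated exonic bases. Tmem119 stood at 9.97 and 27.0, a ratio of 2.71. P2ry12 stood at 23.4 and 29.7, a ratio of 1.27 (interval 1.18 to 1.36) that the size rule did not call. P2ry12 was the highest of the 10 in AAV-GFP and ranked below 5 others in AAV-CDYL. P2ry13, in the same locus, stood at 4.25 and 12.

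In the authors' deposited tables no member has a q-value under 0.05. Such a q is held by 1.65% of the listed genes that reached 1 FPKM in the AAV table and 0.694% of those in the stress table. The smallest q of a member in the authors' deposited table for AAV-CDYL is 0.051, for Ptprc, followed by 0.0713 for Tyrobp, and in the authors' deposited table for stress it is 0.701, for Trem2. These values compare 1 library with 1 library.

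**Figure D2:**
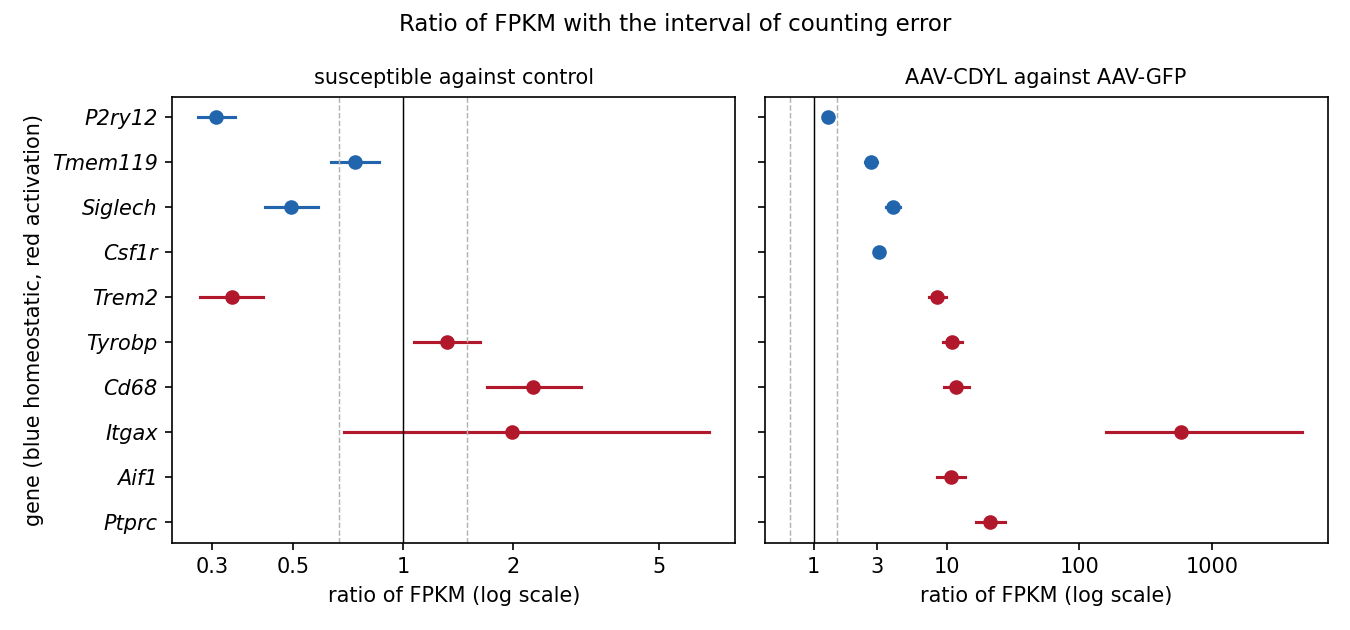
Ratio of FPKM (log scale) of each listed member for susceptible against control (left) and AAV-CDYL against AAV-GFP (right), blue for homeostatic and red for activation genes; lines span the 95% interval of counting error and dashed lines mark 1.5-fold. Red points lie to the right of all blue points at 8.49 or more for AAV-CDYL, while for susceptible Trem2 (0.341) lies among the blue points.

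The contrast between the groups was taken as the median difference of activation genes minus that of homeostatic genes, on the log2(FPKM + 1) scale over listed members. It was 1.68 for AAV-CDYL, from medians of 3.16 and 1.48. For susceptible it was 1.13, from medians of 0.24 and -0.88. That value leaves out Csf1r, Aif1 and Ptprc, which carry no value there, in a table that lists no small differences. The 0.24 includes Itgax, which stayed under the floor, and the median of the 3 activation members at the floor was 0.38. The differences of activation genes spanned 2.94 to 3.73 for AAV-CDYL but -1.41 to 0.99 for susceptible, where they overlapped the homeostatic span of -1.58 to -0.39. The median over all listed genes that reached 1 FPKM was 0.30 for AAV-CDYL and 0.24 for susceptible. Genes with small differences are not listed, and this median depended on the floor. It was 0.07 for AAV-CDYL and 0.06 for susceptible with no floor, and -0.34 and -0.33 with a floor of 5 FPKM.

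Ratios within a library do not depend on scaling between libraries. Over the 7 members listed in both tables, the summed FPKM of 4 activation genes over that of 3 homeostatic genes was 0.857 in control, 1.81 in susceptible, 0.622 in AAV-GFP and 3.28 in AAV-CDYL. The higher ratio came with a lower homeostatic sum in susceptible (44.7 in control, 19.8 in susceptible) and nearly equal activation sums (38.3 and 35.9). P2ry12 made up most of the homeostatic difference (25.4 and 7.85). Within the activation sums Trem2 was lower (18.4 and 6.28) while Tyrobp (16.4 and 21.6) and Cd68 (3.46 and 7.84) were higher. In AAV-CDYL both sums were higher, from 39.5 to 80.6 for homeostatic and from 24.6 to 265 for activation genes. Tyrobp over P2ry12 was 0.646 in control, 2.75 in susceptible, 0.556 in AAV-GFP and 4.85 in AAV-CDYL. Cd68 over P2ry12 was 0.136, 0.998, 0.135 and 1.26 in the same order. Both ratios were thus alike in control and AAV-GFP and higher in the other 2 libraries. Trem2 over Tyrobp was 1.12, 0.291, 0.639 and 0.491, lowest in susceptible and highest in control.

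**Figure D3:**
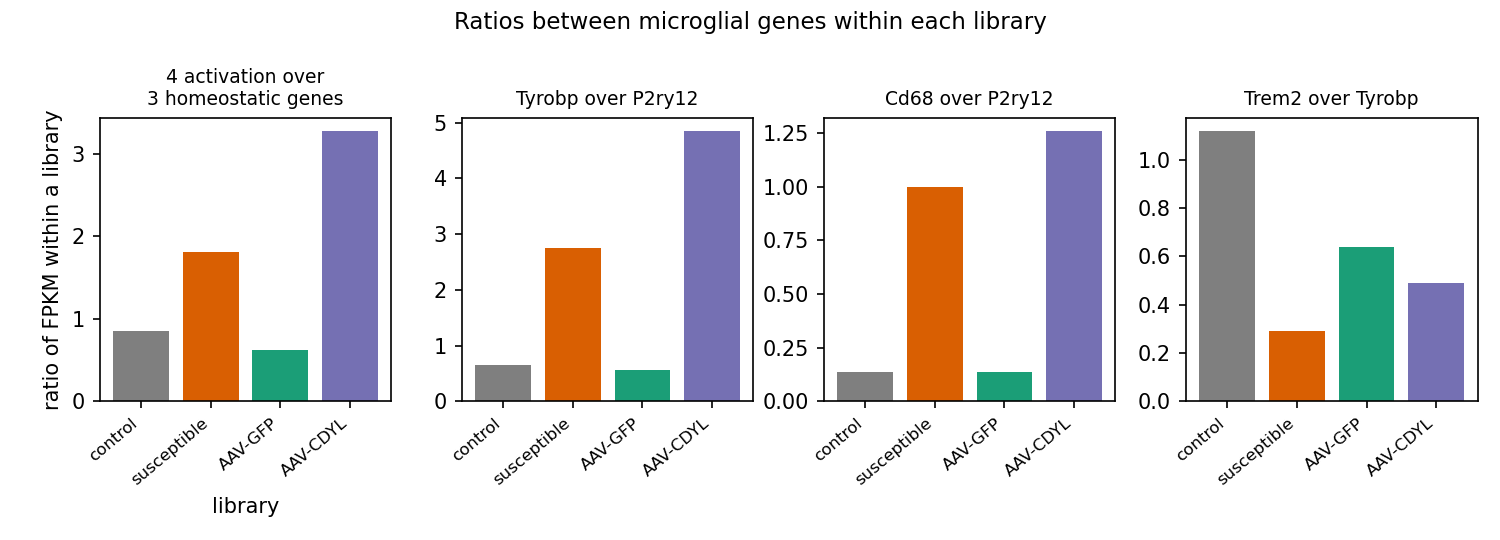
Ratios of FPKM within each of the 4 libraries (1 bar per library, no error because there is 1 library per group): summed activation over summed homeostatic genes, Tyrobp over P2ry12, Cd68 over P2ry12 and Trem2 over Tyrobp. The first 3 panels are higher in susceptible and AAV-CDYL than in control and AAV-GFP, and the last is highest in control at 1.12.

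Control and AAV-GFP come from tables normalized separately and differ in having received a vector. The handling of the controls cannot be read from the labels, so other differences between them cannot be told apart from the vector. Set side by side, control and AAV-GFP show how far the 2 reference libraries lay apart. P2ry12 stood at 25.4 FPKM in control and 23.4 in AAV-GFP, Tmem119 at 9.72 and 9.97, and Cd68 at 3.46 and 3.17. Siglech was less alike, at 9.64 and 6.06. Trem2 stood at 18.4 and 8.33, a ratio of 2.21, so its susceptible level of 6.28 lies nearer to AAV-GFP than to control. Of the 3242 genes at the floor in each table, a share of 10.4% differed by at least 1.5-fold on the log2(FPKM + 1) scale between these 2 libraries. These genes are listed in both tables, so genes that differed little within either pair are left out.

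Genes of related roles were counted from lists chosen with earlier results known, without the members. Counts and medians of every list cover listed genes only, and genes that differed little are not listed. For all lists, the shares over all listed genes at 1 FPKM were 18.9% higher and 10.8% lower in susceptible. In AAV-CDYL they were 31.3% and 14.4%. Among 20 other homeostatic microglial genes, 12 were listed in the stress table, of which 8 lay below control, and 3 were called lower and 1 higher, with a median difference of -0.42 among the 11 that reached 1 FPKM. The orphan receptor gene Gpr34 had 3.46 FPKM in control and 1.57 in susceptible, and the fructose transporter gene Slc2a5 at 2.47 and 1.11. The one called higher was Sparc (60.6 and 123), a matrix glycoprotein that astrocytes and endothelium also make. With AAV-CDYL 17 of 19 were higher, the median was 1.20, and 1, Rtn4rl1, was lower (21.7 and 12.3). Olfml3 stood at 3.15 in AAV-GFP and 14.2 in AAV-CDYL, and the interleukin-10 receptor gene Il10ra at 1.16 and 7.03.

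Genes of disease-associated microglia, a state described in mouse models of neurodegeneration, were counted from a list of 26. In susceptible all 17 listed lay above control, 7 of the 14 at 1 FPKM were called higher and 0 lower, and the median was 0.59. The rest of the 26 carry no value there, so these figures leave out any gene that differed little. The oxysterol-making enzyme gene Ch25h stood at 0.661 and 6.33, Spp1 (osteopontin) at 1.31 and 5.47, and Fth1, the ferritin heavy chain, at 1490 and 2830. With AAV-CDYL 22 of 25 were called higher and 0 lower, with a median of 2.10. Over the 17 already at 1 FPKM in AAV-GFP, 14 were higher and the median was 1.59. Cd52, a leukocyte surface glycoprotein, stood at 0.681 and 131, Lyz2, a lysozyme of macrophages, at 1.77 and 191, and Cst7, a cystatin, at 0.172 and 48.5. Ratios of AAV-CDYL to AAV-GFP overlapped between this list and the other homeostatic genes. Fth1 of this list, for example, had 1.84, and Il10ra of the other homeostatic genes had 6.08.

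TREM2 and TYROBP act through SYK and the kinases, adaptors and phosphatases around it. Of 18 such genes 8 were listed and reached 1 FPKM in the stress table, where 3 were higher, none was lower and the median was 0.55. The adaptor gene Lat2 had 1.49 FPKM in control and 4.04 in susceptible, and Inpp5d, the phosphatase SHIP1, had 4.38 and 8.58. These lay above control although Trem2 lay below it. With AAV-CDYL 13 of 13 were higher, with a median of 1.95, and so were the 6 already at 1 FPKM in AAV-GFP, with a median of 2.02. The list was led by the phosphatase gene Ptpn6 at 1.24 and 19.1 and the exchange factor gene Vav1 at 0.991 and 9.78.

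Ligands of CSF1R and factors of the microglial lineage were a list of 13. In susceptible 2 of 7 were higher, 1 was lower and the median was 0.37. Over all listed genes at 1 FPKM there, 18.9% were higher, 10.8% were lower and the median was 0.24. Il34, the neuronal ligand of CSF1R, had 77.9 FPKM in control and 47.9 in susceptible, while Spi1, which encodes PU.1, stood at 1.51 and 3.17, and Tgfbr2 at 2.89 and 5.08. With AAV-CDYL 10 of 13 were higher, none was lower and the median was 1.54. Spi1 stood at 1.80 and 12.9 and Csf2rb, a cytokine receptor subunit, at 0.146 and 3.25. Irf8, an interferon regulatory factor of myeloid cells, stood at 1.70 and 16.5, in a locus of 65 listed genes.

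Genes shared by myeloid cells gave a reference level for both groups of members. With AAV-CDYL 19 of 19 listed were higher, with a median of 2.88, such as the complement gene C1qa (32.6 and 404 FPKM), the protease gene Ctss (30.0 and 401) and Ly86 (4.64 and 82.6). Of these, 2 reached 1 FPKM in AAV-CDYL alone, and the median of the other 17 was 2.50. Relative to the median of 2.88 the 6 activation members lay between 0.07 (Trem2) and 0.85 (Itgax). The 4 homeostatic members lay below it, by -1.05 for Siglech, -1.28 for Csf1r, -1.52 for Tmem119 and -2.55 for P2ry12. Against 2.50, the activation members lay between 0.44 (Trem2) and 1.22 (Itgax), and the homeostatic ones between -2.18 (P2ry12) and -0.68 (Siglech). In susceptible 7 of 13 were higher, none was lower and the median was 0.61. Fcgr3, an antibody receptor gene, stood at 8.87 and 17.3 there, Cd14, a co-receptor for endotoxin, at 1.20 and 4.55, and Cyba, an oxidase subunit gene in a locus of 47 listed genes, at 4.54 and 11.2.

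**Figure D4:**
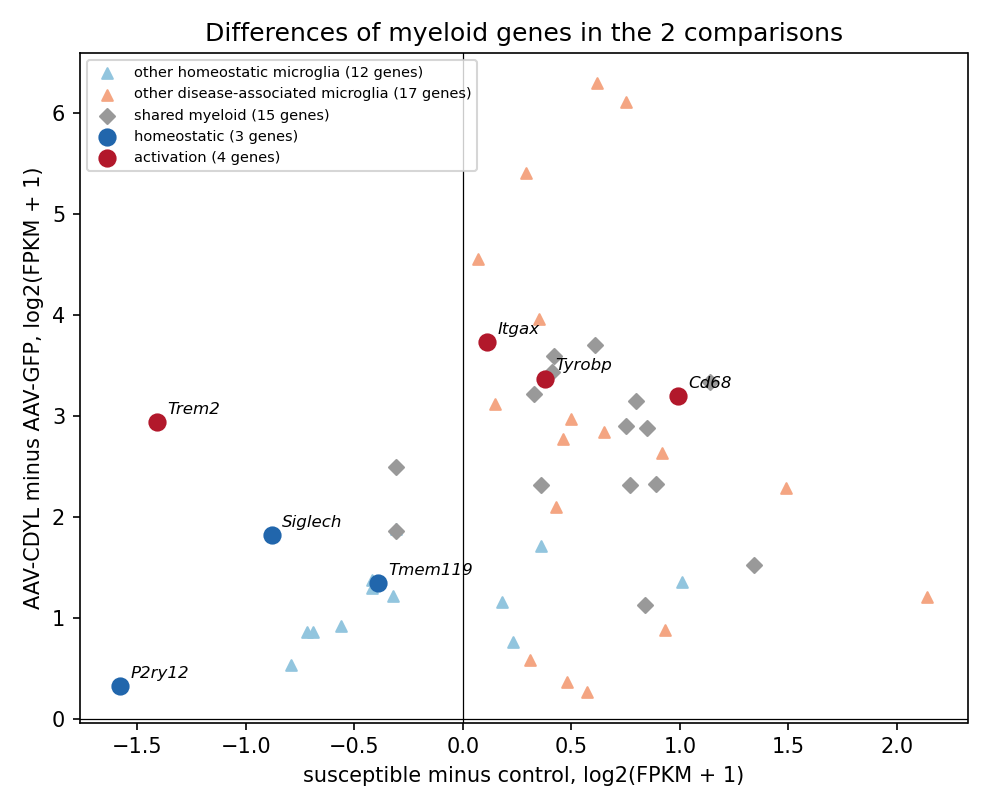
Difference on the log2(FPKM + 1) scale for susceptible minus control (x axis) and AAV-CDYL minus AAV-GFP (y axis), 1 point per gene with a value in both tables; circles are members, triangles and diamonds the other myeloid lists. Trem2 lies at -1.41 and 2.94, apart from Tyrobp (0.38 and 3.37) and Cd68 (0.99 and 3.20), and P2ry12 lies lowest of the members on both axes.

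Markers of other cells moved in the same libraries. Monocyte and dendritic cell markers summed to 19.1 FPKM in AAV-GFP and 148 in AAV-CDYL, 7 of the 8 at 1 FPKM being higher and 3 of the 4 already there in AAV-GFP, with Ly6c2 at 3.47 and 79.1 and the monocyte chemokine receptor gene Ccr2 at 0.0600 and 1.71. T and NK cell markers summed to 1.98 and 42.8, with 10 of 14 at 0 in AAV-GFP, among them Cd3g. Of these genes 12 reached 1 FPKM in AAV-CDYL and 1 did so in AAV-GFP, so the floor fixed the direction of nearly all. B and plasma cell markers summed to 0.914 and 92.2, with 4 of 10 at 0 in AAV-GFP. The 4 of them at the floor reached it in AAV-CDYL alone, which fixed their direction. Markers of border macrophages, the macrophages of meninges and vessel walls, summed to 2.88 and 16.1. Their 3 genes at the floor were higher, namely Ms4a7 (0.132 and 5.65), Cd36 (0.0714 and 1.38) and Stab1 (2.03 and 6.38), of which Stab1 alone was at 1 FPKM in AAV-GFP. The defining Mrc1 (0.200 and 0.462) and Cd163 (0.108 and 0.0771) were under 1 FPKM in both libraries. Neutrophil markers summed to 2.46 and 10.7, and the 3 at the floor reached it in AAV-CDYL alone. Csf3r alone gave 0.935 and 7.60 of these sums. Of the 8 listed neutrophil markers 6 lay above AAV-GFP and 2 below it, among the latter Ltf (0.520 and 0.0313). Ptprc, Itgax, Cd68, Tyrobp and Aif1 are expressed by several of these cells, and the part of such cells in the member values was not tested.

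In the stress table neutrophil markers summed to 82.6 FPKM in control and 329 in susceptible, with 8 of 8 at 1 FPKM higher, of which 5 were there already in control. Monocyte and dendritic cell markers summed to 21 and 47.8, with 4 of 6 higher and 1 lower (2 and 1 of the 4 already at 1 FPKM in control), including Ly6c2 (3.63 and 16.2), while Ccr2 was listed at 0 and 0.0247. T and NK cell markers summed to 0.568 and 2.30 and B and plasma cell markers to 0.880 and 0.534, with 2 of 5 and 5 of 8 listed genes at 0 in control. Border macrophage markers summed to 2.87 and 6.49, and 9 of the 10 listed lay above control. Pf4, at 0.206 and 1.5, was called higher, having reached 1 FPKM in susceptible alone, and Stab1 (2.10 and 3.40) was not called. Mrc1, at 0.213 and 0.141, was the 1 gene below control. Their part in the higher Cd68 level was not tested. Oligodendrocyte markers were higher for 9 of 10 in susceptible and 10 of 10 in AAV-CDYL, and neuronal markers were lower for 1 of 7 and 7 of 10, as all listed neuronal markers lay below the reference library. Endothelial markers were higher for 5 of 8 and 4 of 7, and astrocyte markers for 2 of 5 and 6 of 7, with 1 astrocyte marker lower in AAV-CDYL.

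**Figure D5:**
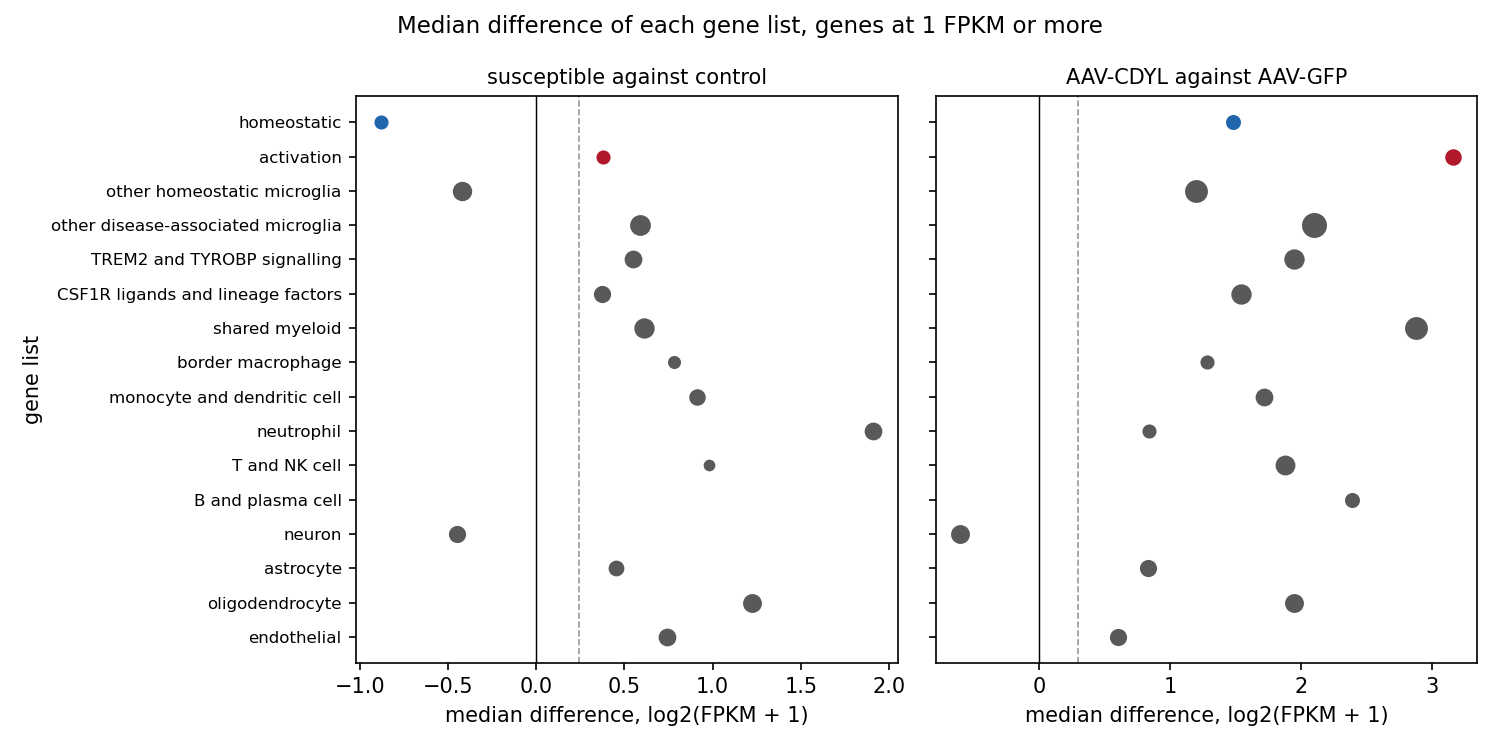
Median difference on the log2(FPKM + 1) scale of each gene list over its genes at 1 FPKM or more, for susceptible minus control (left) and AAV-CDYL minus AAV-GFP (right). Larger points hold more genes, and the dashed line is the median of all listed genes at 1 FPKM or more (0.24 and 0.30). The homeostatic, other homeostatic and neuron lists lie below 0 on the left (-0.88, -0.42 and -0.45), and the activation and shared myeloid lists lie farthest right on the right (3.16 and 2.88).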

How the data were processed

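Per the labels' protocols, Trizol RNA of flash-frozen tissue went into NEBNext Ultra libraries; strand is not used here. The authors deposited 1 table per pair of libraries with FPKM per gene, from Cuffdiff on mm10 per the submitters' processing notes; no source used here gives the aligner or annotation. The p-values and q-values printed are the authors' own and compare 1 library with 1 library. The column for the susceptible library was matched to its title although the header lacks a letter, and 0 value columns were left unmapped.

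Differences, counts and medians were computed from the deposited FPKM within each table, as tables were normalized separately. Depth was read from whole steps between low values of genes that GENCODE M21 annotates with a single transcript, 3 to 20 kb long. At least 92.9% of values below 4.5 steps were within 0.15 of whole; annotation length ignores fragment length, so fragment numbers are approximate. The count of fragments behind a member assumes its longest coding transcript. Members, lists and motifs were chosen with earlier results of these data known, so no list is independent evidence. Named genes are the members, Cdyl, up to 3 genes with the largest absolute difference per list and comparison, and the genes nearest to P2ry12, Trem2 and Cd68. Also named, after their values were seen, are P2ry13, P2ry14, Hmgxb3, Rtn4rl1, Ccr2, Mrc1 and Cd163. Some genes within the rule are left unnamed. The code of the size rule was run on simulated pairs with known changes and counting noise only. That run holds no spread between animals, so it checks the code and not the calls. Alternatives were other pseudocounts, floors, a 2-fold rule, median centring, upper-quartile scaling and 2 forms of a myeloid reference. Software was numpy 2.4.6, scipy 1.17.1, pandas 2.3.3 and, for plots, matplotlib 3.10.9, under Python 3.11.15.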

Additional observations from a re-analysis of the deposited data

How the results depend on the processing

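No paired analysis was possible because each group has 1 library and the labels give no replicate numbers. The activation minus homeostatic contrast, taken over listed members, stayed above the 1.5-fold line under every alternative run. It ran from 0.88 to 1.47 for susceptible and from 1.61 to 1.95 for AAV-CDYL. The lowest value of each came when members that share a locus were left out. Centring on the median, the 2-fold rule and dropping the floor cannot change the value of this contrast. Their equal values (1.13 for susceptible, 1.68 for AAV-CDYL) are therefore no check of it. Of the 17 member differences under 7 other pseudocounts, floors, rules and scalings, 115 of 119 values kept their call and 0 called ones changed sign; Itgax in susceptible, not called, was -0.14 after centring. Tmem119 (-0.63, centred) and Tyrobp (0.69, upper quartile) gained a call in susceptible. Siglech (-0.88) and Cd68 (0.99) in susceptible lost theirs under the 2-fold rule, which left 1 homeostatic and 1 activation member called there. Relative to the shared myeloid median of 2.88, the AAV-CDYL differences of P2ry12 (-2.55), Tmem119 (-1.52), Csf1r (-1.28) and Siglech (-1.05) turned negative. They were smaller than that median, although each gene stood above AAV-GFP. Those of Trem2 (0.07), Ptprc (0.15), Aif1 (0.24), Cd68 (0.33) and Tyrobp (0.49) were under the 1.5-fold line. Relative to the shared myeloid median in susceptible, Cd68 was 0.38 and Tmem119 -1.0. The AAV-CDYL median was also taken over genes at 1 FPKM in AAV-GFP, a choice made after seeing the data. Tyrobp (0.86), Cd68 (0.70) and Aif1 (0.61) were then above the line, and Ptprc (0.52) and Trem2 (0.44) under it. P2ry12 (-2.18), Tmem119 (-1.15), Csf1r (-0.90) and Siglech (-0.68) were still negative. Over all listed genes, calls in susceptible were 1581 (1006 higher, 575 lower). They were 502 under the 2-fold rule, 880 with a floor of 5 FPKM and 41 by the authors' q. Centred on the median they were 2450 (532 higher, 1918 lower), and under upper-quartile scaling 2512 (2318 higher, 194 lower). In AAV-CDYL they were 3675 (2516 higher, 1159 lower), 1569 under the 2-fold rule, 2374 with a floor of 5 FPKM, 5202 centred on the median (1630 higher, 3572 lower), 3609 under upper-quartile scaling (2788 higher, 821 lower) and 147 by the authors' q. The median of listed genes at 1 FPKM or more was 0.24 in susceptible and 0.30 in AAV-CDYL. It was -0.33 and -0.34 with a floor of 5 FPKM and 0.46 and 0.36 under upper-quartile scaling. Genes with small differences are not listed, and this median, and centring on it, depend on the floor. Depth limits Itgax most, at an estimated 2 fragments in AAV-GFP and 5 in control.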

Other observations

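Likeness between genes was taken as the distance between pairs of differences (susceptible minus control, AAV-CDYL minus AAV-GFP) on the log2(FPKM + 1) scale, over 2363 genes averaging 2 FPKM or more in both tables. It rests on 4 libraries and says nothing of shared function. Nearest to Cd68 were the adhesion molecule gene Icam1 (distance 0.15, differences 1.14 and 3.24), Cyba (0.21) and the long noncoding RNA Neat1 (0.32). Nearest to P2ry12 were the noncoding RNA gene Dleu2 (distance 0.21, differences -1.39 and 0.43), the phosphatase gene Inpp5b (0.36) and Palm3 (0.51). Those of Trem2 lay farther off, with Mir1897 at 0.87 (differences -2.08 and 3.49), Rab26os at 1.07 and Gm38317 at 1.15.

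Among the genes in the P2ry12 locus, the P2Y receptor gene P2ry14 stood at 0.719 FPKM in control, 0.906 in susceptible, 0.766 in AAV-GFP and 2.19 in AAV-CDYL. It lay slightly above control in susceptible, where P2ry12 lay below it.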
